A study of Mus musculus with 36 samples.

Results

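Arhgap24 encodes a GTPase-activating protein, also called FilGAP, and it was examined across all 36 arrays of a study of left ventricle after transverse aortic constriction (TAC). It was chosen by its measured daily rhythm, which earlier results of these arrays gave as larger in TAC than in SHAM, so its levels, their amplitudes and the difference between the surgeries are given here as a description with no test. Of 22690 probe sets on the array, 1 carried the single symbol Arhgap24, 1424842_a_at, and it stood for 1 of 12393 genes measured. RefSeq lists 4 curated transcripts of the gene, and the suffix of this probe set marks probes shared by several transcripts of 1 gene, so its transcripts could not be told apart.

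The GTPases Rac and Cdc42 are molecular switches that cycle between an active GTP-bound and an inactive GDP-bound form, and they set the assembly of actin filaments. GTPase-activating proteins (GAPs) switch them off, and guanine nucleotide exchange factors (GEFs) switch them on. FilGAP binds the actin cross-linker filamin A, is phosphorylated by the kinase ROCK and acts mainly on Rac, and it is best known from cell spreading, from endothelial cells and from the podocytes of the kidney. In the heart many transcripts follow the time of day under the circadian clock and the feeding cycle.

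The study took left ventricle from mice with TAC, a surgical narrowing of the aorta that loads the left ventricle with pressure, and from mice with a sham operation (SHAM), 8 weeks after surgery. Tissue was collected at 6 zeitgeber times (ZT, hours on the light schedule), ZT03, ZT07, ZT11, ZT15, ZT19 and ZT23. Each surgery and time had 3 arrays, called biological replicates in the labels. This gave 12 groups and 18 arrays for each surgery. Each array is taken here as 1 mouse, which the sample titles do not state. No source used here gives the strain, sex, age or genotype of the mice, the light schedule, the degree of constriction or the heart function.

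The deposited values are on a log scale, taken here as base 2, and every probe set was centred to a median of 0 within each surgery, within a tolerance of 1e-06. A value is therefore a deviation from the gene's own median over the 18 arrays of that surgery. Times can be compared within TAC and within SHAM, and the sizes of the swings can be set beside each other, but whether TAC or SHAM had more Arhgap24 RNA cannot be read. For the same reason the labelled tissue could not be checked by how much of its defining markers was present. In bulk tissue fewer cells of a type and less RNA per cell cannot be told apart. Means of markers of other tissues exceeded 1 on 4 arrays. Airway epithelial markers averaged 1.27 on TAC ZT03 replicate 3, 1.77 on TAC ZT23 replicate 1 and 1.02 on SHAM ZT23 replicate 3. Lymphocyte markers averaged 1.59 on SHAM ZT11 replicate 3.

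In TAC ventricles Arhgap24 stood lowest at ZT11 and highest at ZT19. At ZT03 the 3 TAC arrays gave −0.07, −0.08 and −0.18. At ZT07 they gave −0.16, −0.30 and −0.12, and at ZT11 they gave −0.11, −0.21 and −0.37. All 9 arrays of these 3 times lay below the TAC median. The TAC arrays gave 0.24, 0.11 and 0.14 at ZT15, then 0.45, 0.43 and 0.57 at ZT19, and 0.18, 0.07 and 0.20 at ZT23. All 9 arrays of these later times lay above the TAC median, and the 3 arrays of ZT19 lay above every other TAC array. The TAC means were −0.11 ± 0.06 at ZT03, −0.19 ± 0.09 at ZT07, −0.23 ± 0.13 at ZT11, 0.16 ± 0.07 at ZT15, 0.48 ± 0.07 at ZT19 and 0.15 ± 0.07 at ZT23 (log2, SD, n = 3 each).

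Ordered by mean, the TAC times ran ZT19, ZT15, ZT23, ZT03, ZT07 and ZT11. Between neighbours in this order the mice separated at 2 steps. The lowest ZT19 mouse lay 0.19 above the highest ZT15 mouse, and the lowest ZT23 mouse lay 0.13 above the highest ZT03 mouse. ZT15 and ZT23 overlapped, and so did ZT03 with ZT07 and ZT07 with ZT11.

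In SHAM ventricles the same probe set moved less than in TAC, and its highest group was ZT23. The SHAM arrays gave −0.00023, 0.00023 and −0.08 at ZT03, then 0.06, −0.08 and −0.00079 at ZT07, and −0.20, −0.08 and −0.12 at ZT11. They gave −0.07, 0.06 and 0.03 at ZT15, then 0.05, −0.06 and 0.04 at ZT19, and 0.10, 0.08 and 0.05 at ZT23. Of 9 SHAM arrays at ZT15, ZT19 and ZT23, 7 lay above the SHAM median, and of 9 at ZT03, ZT07 and ZT11, 7 lay below it. The SHAM means were −0.025 ± 0.044 at ZT03, −0.0050 ± 0.070 at ZT07, −0.13 ± 0.06 at ZT11, 0.0070 ± 0.067 at ZT15, 0.0094 ± 0.058 at ZT19 and 0.08 ± 0.02 at ZT23 (log2, SD, n = 3 each). The lowest SHAM ZT23 mouse, at 0.054, lay 0.0049 above the highest of ZT19 but below the highest of ZT15, at 0.059, and of ZT07, at 0.063. The highest SHAM ZT11 mouse, at −0.079, lay just below the lowest mouse of every other SHAM time, the nearest being −0.077 at ZT07. The 4 SHAM times between them overlapped.

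**Figure D1:**
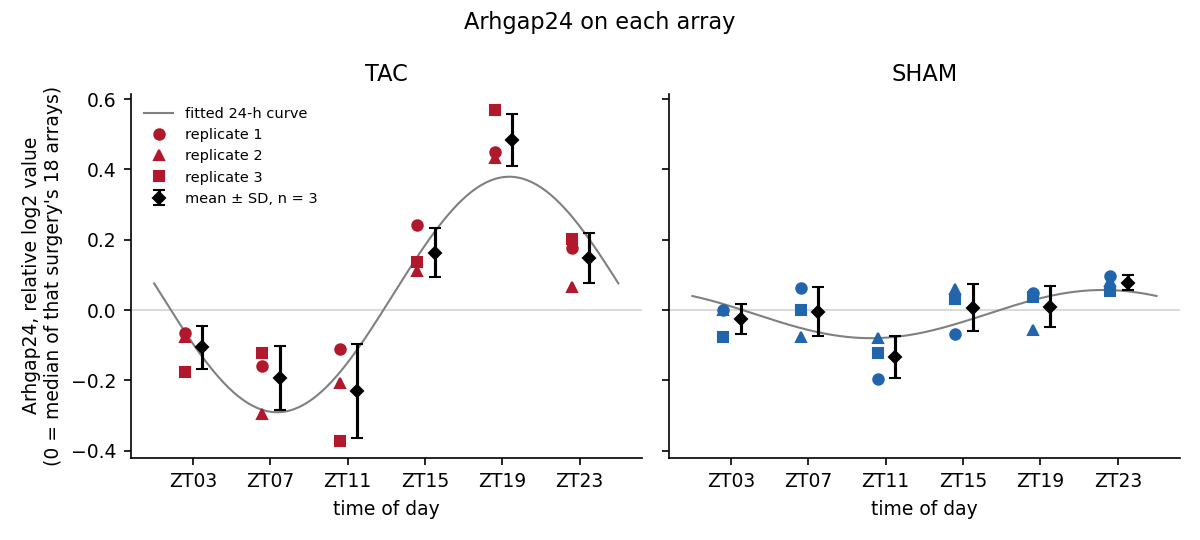
Arhgap24 on each of the 36 arrays (log2, relative to the median of its surgery) against zeitgeber time in hours, TAC at left and SHAM at right, with the symbol giving the replicate number, bars the group mean ± SD of 3 mice and the line the fitted 24-h curve. The TAC arrays run over 0.94, with ZT19 above every other time, and the SHAM arrays over 0.29.

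The span between the lowest and the highest array was 0.94 in TAC and 0.29 in SHAM. The mean at ZT19 exceeded that at ZT11 by 0.71 in TAC, a 1.64-fold difference, and by 0.14 in SHAM, a 1.10-fold difference. The mean of ZT15, ZT19 and ZT23 exceeded that of ZT03, ZT07 and ZT11 by 0.44 in TAC and by 0.09 in SHAM. A 24-h cosine curve fitted to all genes with limma gave Arhgap24 an amplitude, the distance of the curve's mean to its peak, of 0.33 ± 0.03 in TAC and 0.07 ± 0.03 in SHAM (log2, SE, 18 arrays each). Peak over trough was 1.59-fold in TAC and 1.10-fold in SHAM, and the TAC amplitude was 4.89 times the SHAM amplitude. The fitted peak fell at ZT19.4 ± 0.352 h in TAC and at ZT22.2 ± 1.72 h in SHAM (SE), a time that the small SHAM curve left loosely placed.

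Ranked by amplitude, Arhgap24 was number 83 of 12393 genes in TAC and number 3507 in SHAM. Larger amplitudes belonged to 0.662% of genes in TAC and to 28.3% of genes in SHAM. Time of day accounted for 92.5% of the variance of Arhgap24 over the TAC arrays and for 65.5% over the SHAM arrays, where the median gene had 33.4% in TAC and 36.6% in SHAM. A higher share than that of Arhgap24 belonged to 0.0161% of genes in TAC and to 9.34% of genes in SHAM. Mice of 1 group differed in Arhgap24 with an SD of 0.09 in TAC and 0.06 in SHAM, where the median gene had 0.09 in TAC and 0.08 in SHAM.

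The TAC course was sharper than a cosine. The ZT19 mean lay 0.11 above the TAC curve and the ZT23 mean lay 0.09 below it, with ZT07 at 0.10 above and ZT11 at 0.08 below. A 12-h curve added to the 24-h curve had an amplitude of 0.11 in TAC and 0.017 in SHAM.

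Each replicate number taken by itself as a series of 6 arrays gave a TAC amplitude above each SHAM amplitude. Arhgap24 was chosen by this difference on the same arrays, and the labels do not pair samples by number. The series therefore describe its values and are no separate test of the difference. The 3 TAC series had amplitudes of 0.30, 0.32 and 0.39 with peaks at ZT18.9, ZT19.3 and ZT19.8. The 3 SHAM series had amplitudes of 0.11, 0.05 and 0.06 with peaks at ZT23.8, ZT21.3 and ZT20.3. Leaving out 1 array at a time kept the amplitude between 0.31 and 0.36 in TAC and between 0.05 and 0.08 in SHAM. Without the 4 arrays that carried airway or lymphocyte markers it was 0.34 in TAC and 0.06 in SHAM.

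Means of marker genes of the cell types that heart tissue can hold were set beside the Arhgap24 course. The mean of 12 endothelial markers ran over 0.04 to 0.12 on the 3 TAC ZT19 arrays and over −0.16 to 0.20 on the other TAC arrays. Its correlation with Arhgap24 was r = 0.418 (rho = 0.368) over the 18 TAC arrays and r = 0.447 (rho = 0.432) over the 18 SHAM arrays. Of the 12 markers 10 had an r above 0 in each surgery, where all genes had 45.7% in TAC and 48.0% in SHAM. The same count was 10 of 12 for cardiomyocyte markers in TAC and 8 in SHAM. It was 3 of 10 for fibroblast markers in TAC and 9 in SHAM, and 5 of 8 for atrial markers in TAC and 7 in SHAM. The mean of 12 cardiomyocyte markers ran over −0.015 to 0.11 on the TAC ZT19 arrays and over −0.17 to 0.07 on the other TAC arrays, with r = 0.412 (rho = 0.315) in TAC and r = 0.278 (rho = 0.228) in SHAM. Fibroblast markers ran over −0.32 to 0.08 on the TAC ZT19 arrays and over −0.38 to 0.43 on the other TAC arrays, with r = −0.370 in TAC and 0.266 in SHAM, and podocyte markers had r = −0.0891 in TAC and −0.00841 in SHAM. Over the other 8 marker lists r lay between −0.308 (smooth muscle and pericytes) and 0.317 (red cells) in TAC, and between −0.380 (lymphocytes) and 0.169 (red cells) in SHAM. Among these, the means over the TAC arrays ran over −0.84 to 0.50 for atrial markers, −0.55 to 0.76 for red cells, −0.32 to 0.86 for white adipocytes and −0.09 to 1.77 for airway epithelium. The part of cell makeup in the Arhgap24 course was not tested. With the means of atrial and white adipocyte markers in the fit as covariates, the Arhgap24 amplitude was 0.34 in TAC and 0.05 in SHAM. In TAC these means had an r with Arhgap24 of only 0.101 (atrial) and 0.0161 (white adipocyte). Endothelial and cardiomyocyte means, with a higher r in TAC, were not used as covariates, so this fit is no test of cell makeup.

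The genes with courses most like Arhgap24 were ranked by Pearson's r over the 18 arrays of a surgery, once in TAC and once in SHAM, among the other 12392 genes. Arrays of 1 time share that time, so these values describe the arrays and carry no p. The 10 highest in TAC were Ackr3 (0.849), Palmd (0.845), Tacc2 (0.837), Slco3a1 (0.828), Slk (0.826), Cry1 (0.821), Cep85 (0.819), Ywhag (0.817), Bves (0.816) and Klhl7 (0.814). The next, left out by this limit, were Slc16a1 (0.805) and Card19 (0.804). Ackr3 is an atypical receptor that takes up the chemokine CXCL12, Cry1 is a core repressor of the circadian clock, Slk is a kinase of the cytoskeleton, Ywhag is a 14-3-3 adaptor and Bves is a cAMP-binding membrane protein of heart and skeletal muscle. Tacc2 and Cep85 are proteins of the centrosome, Slco3a1 is an organic anion transporter and Klhl7 is a ubiquitin ligase adaptor.

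Of the 10, 7 had a promoter in the RefSeq table used here, and none was listed for Arhgap24. The promoters of the gene closest to Arhgap24 in TAC and of the clock gene among the 10 are shown as the 250 bases before the start site, on the gene's strand, in build GRCm38.p6. Ackr3 lies at chr1:90203730-90203979 on the plus strand and Cry1 at chr10:85185055-85185304 on the minus strand. Capitals mark the E-box CACGTG, the motif that the clock activators CLOCK and BMAL1 bind.
Ackr3: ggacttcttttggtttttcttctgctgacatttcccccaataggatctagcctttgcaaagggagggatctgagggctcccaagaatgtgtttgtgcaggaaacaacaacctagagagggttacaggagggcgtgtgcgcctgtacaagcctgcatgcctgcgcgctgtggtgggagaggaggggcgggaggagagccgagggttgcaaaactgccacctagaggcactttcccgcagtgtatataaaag
Cry1: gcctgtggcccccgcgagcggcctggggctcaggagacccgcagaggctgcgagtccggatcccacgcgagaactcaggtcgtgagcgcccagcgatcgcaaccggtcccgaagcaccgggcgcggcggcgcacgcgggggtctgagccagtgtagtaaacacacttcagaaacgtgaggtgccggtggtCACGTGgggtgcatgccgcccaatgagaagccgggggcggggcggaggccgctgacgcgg
The Cry1 promoter held 1 E-box, beginning 60 bases before the start site. It was the only one of the 7 promoters with this motif, which is 14.3%, against 909 of 9887 measured genes with an entry, which is 9.19%. The D-box TTATGTAA, the core TAGGTCA of the element bound by ROR and REV-ERB receptors and the cAMP element TGACGTCA, searched on both strands, were in 0 of the 7, against 0.627%, 2.22% and 2.53% of the 9887.

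The 10 genes chosen in TAC peaked there between ZT17.9 and ZT20.6, which the ranking itself favours. Ackr3 came closest to Arhgap24 and also swung further, with an amplitude of 0.48 ± 0.07 in TAC and 0.28 ± 0.07 in SHAM (log2, SE). Its 3 TAC arrays ran over −0.78 to −0.26 at ZT11 and over 0.25 to 0.80 at ZT19, and its SHAM arrays over −0.42 to 0.018 at ZT11 and over 0.18 to 0.44 at ZT19. Ackr3 thus had its highest mean at ZT19 in both surgeries, where Arhgap24 had it in TAC. Its ZT19 arrays overlapped those of ZT15 in TAC (0.20 to 0.70) and those of ZT03 in SHAM (−0.018 to 0.38). Its fitted peak fell at ZT19.1 in TAC and at ZT22.1 in SHAM. Cry1 averaged 0.27 ± 0.10 in TAC and 0.31 ± 0.11 in SHAM at ZT19, and −0.18 ± 0.12 in TAC and −0.21 ± 0.04 in SHAM at ZT07 (SD, n = 3 each). Its amplitude was 0.22 ± 0.03 in TAC and 0.23 ± 0.03 in SHAM (SE). Slk, whose TAC arrays ran over 0.22 to 0.26 at ZT19 and over −0.11 to −0.019 at ZT11, had a SHAM course with r = −0.255 to Arhgap24. Tacc2 averaged 0.48 ± 0.06 in TAC and 0.05 ± 0.05 in SHAM at ZT19, and its SHAM course was irregular, with −0.57 ± 0.05 at ZT03 and 0.33 ± 0.13 at ZT07.

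**Figure D2:**
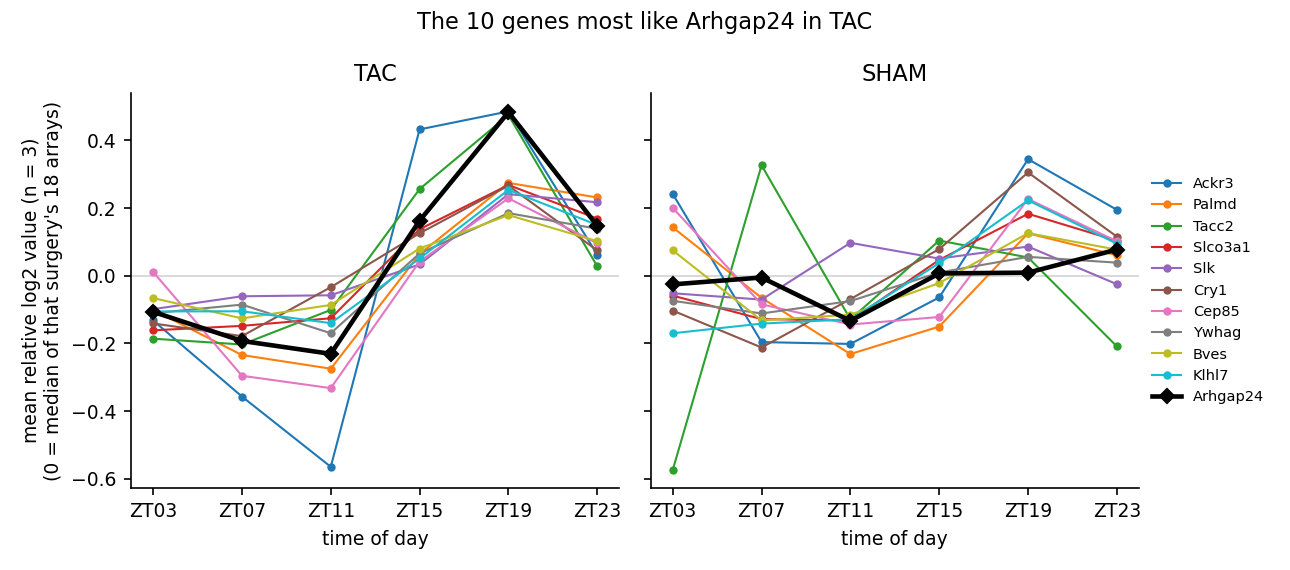
Mean of 3 mice (log2, relative to the median of its surgery) at each zeitgeber time for Arhgap24 and the 10 genes with the highest correlation with it in TAC, TAC at left and SHAM at right. The 10 genes peak near Arhgap24 in TAC, and in SHAM most of them keep a swing while the Arhgap24 means run from −0.13 (ZT11) to 0.08 (ZT23).

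Set beside these genes, Arhgap24 had the largest ratio of TAC over SHAM amplitudes, 4.89, which its choice by a larger rhythm in TAC favours. That ratio rests on a small SHAM amplitude of 0.07 ± 0.03 (log2, SE). The 10 genes had ratios between 0.923 and 2.13, with a median of 1.5. The difference of rhythm between the surgeries, tested with limma and Benjamini-Hochberg adjustment, was called for 0 of the 10 (lowest adjusted p = 0.349), and 4 of them had an unadjusted p under 0.05. Over all genes 6 were called, or 0.0484%, and 6.26% had an unadjusted p under 0.05. The ranking used the TAC arrays and so favours a rhythm in TAC, and with it a larger ratio and a difference from SHAM. For the 10 genes these values are therefore a description and no separate test of a changed rhythm. A rhythm in SHAM, which the ranking did not use, was called for 7 of the 10, against 5.58% of all genes (limma, adjusted p under 0.05). All 10 were called in TAC through the ranking, and of the 538 genes called in TAC besides Arhgap24, 46.1% were called in SHAM too. These 7 were Ackr3, Palmd, Slco3a1, Cry1, Cep85, Bves and Klhl7, with adjusted p between 5.19e-06 for Cry1 and 0.0393 for Ackr3. Fitted on the SHAM arrays alone, 7 were called as well, against 9.41% of genes, but without all arrays of replicate 1, 2 or 3 the count was 3, 2 or 4.

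Among the 10, the correlation with Arhgap24 over the SHAM arrays was above 0 for 9 and ran between −0.255 for Slk and 0.495 for Slco3a1. Among the 100 genes with the highest r in TAC, 90 had an r above 0 in SHAM, with a median of 0.328, against 48.0% and a median of −0.0144 over all genes. The likeness in TAC rested mainly on the time of day. After the group means were taken off, the r of the 10 with Arhgap24 over the TAC arrays lay between 0.103 and 0.514, with a median of 0.275. Without the 3 arrays of ZT19 it lay between 0.667 and 0.809, and without the 2 arrays farthest from the Arhgap24 median, ZT19 replicates 1 and 3, between 0.686 and 0.807.

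At the other end in TAC stood genes that were low when Arhgap24 was high. The lowest were Osbp (−0.805), Cntln (−0.804), Zmym3 (−0.789), Pld1 (−0.788) and Rilpl2 (−0.787), with Cpne3 (−0.780) next. Cntln belongs to the centrosome and Pld1 is a phospholipase D. Osbp, an oxysterol-binding protein that moves sterols between membranes, averaged −0.23 ± 0.15 in TAC and −0.19 ± 0.03 in SHAM at ZT19, and 0.11 ± 0.01 in TAC and 0.13 ± 0.04 in SHAM at ZT07. Its mirror of the Arhgap24 course in TAC was thus about as large in SHAM, where the Arhgap24 amplitude was 0.07 against 0.33 in TAC.

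In SHAM the ranking gave other genes and lower values. The 10 highest were Rxrg (0.804), Pip5k1b (0.755), Vmp1 (0.754), Ap4s1 (0.749), Mepe (0.734), Adgra3 (0.725), Mpi (0.711), Tbl3 (0.710), Nbn (0.705) and Itgb1bp2 (0.704), followed by Ndufa13 (0.702) and Gdpd1 (0.692). Rxrg is a retinoid X receptor, Pip5k1b is a kinase that makes the membrane lipid PIP2, Vmp1 takes part in autophagy, Adgra3 is an adhesion receptor and Itgb1bp2, melusin, is a muscle protein that binds integrin. The lowest in SHAM were Padi4 (−0.777), Cyp4a14 (−0.717), Stil (−0.707), Pola1 (−0.706) and Pramel25 (−0.702), with Bcl2l10 (−0.686) next. An r of at least 0.8 was reached by 16 genes in TAC and 1 in SHAM, and an r of at least 0.7 by 100 genes in TAC and 11 in SHAM. With the group means taken off, the 10 genes chosen in SHAM had a median r of 0.629 over the SHAM arrays, where the 10 chosen in TAC had 0.275 over the TAC arrays. Each set was chosen on the arrays that gave its median, which favours a high value. Over the arrays of the other surgery the medians were 0.067 for the 10 chosen in SHAM and 0.214 for the 10 chosen in TAC.

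Among the 100 highest genes of each surgery, 7 were in both, which is 7% of each list. Each list was drawn from 12392 genes, and whether 7 is more than unrelated lists would share was not tested. Vmp1 and Adgra3, named here after their values were seen, had an r of at least 0.7 in both surgeries. Adgra3 averaged 0.21 ± 0.07 in TAC and 0.10 ± 0.01 in SHAM at ZT19, and its amplitude was 0.15 ± 0.03 in TAC and 0.12 ± 0.03 in SHAM. Vmp1 had an amplitude of 0.15 ± 0.03 in TAC and 0.06 ± 0.03 in SHAM (SE).

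**Figure D3:**
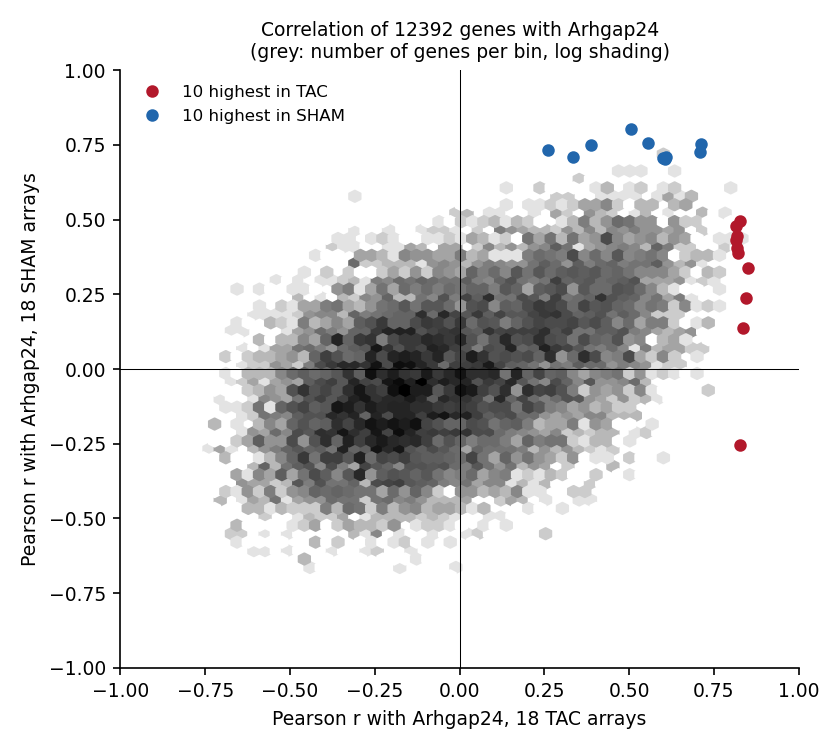
Pearson's r of each of 12392 genes with Arhgap24 over the 18 TAC arrays (horizontal) against the same over the 18 SHAM arrays (vertical), with the 10 highest genes of each surgery marked and Vmp1 and Adgra3 reaching 0.7 in both. The genes chosen in TAC sit near 0.8 across and below 0.5 up, and those chosen in SHAM above 0.7 up and between 0.26 and 0.71 across.

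Genes of related families were taken as 5 lists, called the pathway lists here. They were other GAPs, GEFs with dissociation inhibitors, the GTPases, filamin with effectors such as those of Rac, and actin genes with targets of the serum response factor Srf. Whether their members act with Arhgap24 in these hearts was not tested. Of 223 listed genes 159 were measured. A rhythm was called for 9 of them in TAC, or 5.66%, against 4.35% of all genes, and for 7 in SHAM, or 4.40%, against 5.58% of all genes (limma, adjusted p under 0.05). Called with a peak between ZT12 and ZT24 were 7 of the 159 in TAC, or 4.40%, against 2.98% of all genes, and 2 in SHAM, or 1.26%, against 2.99% of all genes. Among all genes called besides Arhgap24, 368 of 538 (68.4%) peaked there in TAC and 370 of 692 (53.5%) in SHAM. The median amplitude of the 159 was 0.052 in TAC and 0.055 in SHAM, and that of all genes was 0.047 in TAC and 0.048 in SHAM. Without TAC ZT23 replicate 3 the TAC count was 5, and with every array of replicate 1, 2 or 3 dropped it was 4, 1 or 4. Without the 4 arrays with airway or lymphocyte markers 4 were called in TAC and 8 in SHAM.

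Of 34 other GAPs measured, a rhythm was called for 0 in TAC, where all genes had 4.35%, with 4 at an unadjusted p under 0.05 (limma), where all genes had 19.8%. With 34 genes, neither count is read as particular to GAPs. Their largest TAC amplitude was 0.11, in Stard13, a GAP for RhoA, against 0.33 in Arhgap24. In SHAM 2 were called, or 5.88%, where all genes had 5.58%. Arhgap18, a GAP for RhoA, had an amplitude of 0.07 ± 0.05 in TAC (adjusted p = 0.651) and of 0.35 ± 0.05 with a peak at ZT1.16 in SHAM (adjusted p = 5.28e-05). Arhgap18 averaged −0.09 ± 0.02 in TAC and 0.31 ± 0.32 in SHAM at ZT23, and 0.09 ± 0.03 in TAC and 0.40 ± 0.03 in SHAM at ZT03. The difference of its rhythm between the surgeries was not called (adjusted p = 0.485). Srgap2, a GAP for Rac that bends membranes, had 0.07 ± 0.02 in TAC (adjusted p = 0.229) and 0.10 ± 0.02 in SHAM (adjusted p = 0.0284), and its SHAM call was lost when any 1 of 5 SHAM arrays was left out, with adjusted p up to 0.102. Arhgap6, a GAP for RhoA, had the lowest correlation with Arhgap24 of these lists in TAC (r = −0.672, and 0.275 in SHAM), with an amplitude of 0.06 ± 0.02 in TAC (adjusted p = 0.0737) and of 0.017 ± 0.016 in SHAM. Arhgap22 and Arhgap25, the closest relatives of Arhgap24, are not analysed here.

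Of 42 measured GEFs and dissociation inhibitors, a rhythm was called for 0 in TAC (all genes 4.35%), with 3 at an unadjusted p under 0.05 (all genes 19.8%). In SHAM it was called for 1 (2.38%, all genes 5.58%). That gene, Arhgef10l, had an amplitude of 0.09 ± 0.03 in TAC (adjusted p = 0.154) and of 0.16 ± 0.03 in SHAM (adjusted p = 0.00369). Its peak lay at ZT1.59 in TAC and at ZT2.08 in SHAM, hours away from the Arhgap24 peak at ZT19.4.

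Among the 18 measured GTPases 2 were called in TAC (11.1%, all genes 4.35%) and 0 in SHAM (all genes 5.58%). An unadjusted p under 0.05 (limma) was found for 5 in TAC (all genes 19.8%) and 4 in SHAM (all genes 18.8%). Rhoj, a Cdc42-like GTPase of endothelial cells, had an amplitude of 0.42 ± 0.09 in TAC (adjusted p = 0.00853) and of 0.21 ± 0.09 in SHAM (adjusted p = 0.282). Its means were highest at ZT23 in TAC, 0.72 ± 0.27, where SHAM had 0.0077 ± 0.38, and its peak at ZT23.4 came later than that of Arhgap24. Rhoc, a close relative of RhoA, had an amplitude of 0.21 ± 0.05 in TAC (adjusted p = 0.0283) and of 0.14 ± 0.05 in SHAM (adjusted p = 0.207), and its TAC call was lost when any 1 of 5 TAC arrays was left out, with adjusted p up to 0.0989. For Rhoj the TAC call was lost in 4 of 51 alternative settings. The difference between the surgeries was not called for Rhoj (adjusted p = 0.881) or Rhoc (adjusted p = 0.933). Rac1, the Rac of most tissues, had 0.015 ± 0.022 in TAC and 0.0090 ± 0.022 in SHAM (adjusted p = 0.902 in TAC and 0.960 in SHAM).

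Flna, the filamin A that FilGAP binds, had an amplitude of 0.04 ± 0.03 in TAC and 0.014 ± 0.034 in SHAM (adjusted p = 0.699 in TAC and 0.958 in SHAM), and r = −0.0712 with Arhgap24 in TAC. Rock1, a kinase of the ROCK pair, had 0.04 ± 0.04 in TAC (adjusted p = 0.740) and 0.13 ± 0.04 in SHAM (adjusted p = 0.0552). Of the 26 measured genes of this list, 0 were called in TAC (all genes 4.35%), with 5 at an unadjusted p under 0.05 (all genes 19.8%). In SHAM 1 was called (3.85%, all genes 5.58%). That gene, Wasf2, which drives branched actin under Rac, had 0.08 ± 0.03 in TAC (adjusted p = 0.231) and 0.15 ± 0.03 in SHAM (adjusted p = 0.00525). Baiap2, an adaptor between Rac and Wasf2, had the highest r with Arhgap24 in TAC of this list, 0.690, and 0.569 in SHAM, on an amplitude of 0.05 ± 0.02 in TAC (adjusted p = 0.130) and 0.03 ± 0.02 in SHAM.

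Actin genes and Srf targets held 7 of the 9 TAC calls of the pathway lists. Of 39 measured, 7 were called in TAC (17.9%, all genes 4.35%) and 3 in SHAM (7.69%, all genes 5.58%). Over all 5 lists the 9 TAC calls became 4 without the 4 arrays with airway or lymphocyte markers, and 2 on the TAC arrays alone. With 39 genes, in lists chosen with earlier results of these arrays known, the share is not read as particular to them. Srf itself and Vcl were called in both. Xirp1, which binds actin filaments at the intercalated disc, had the course closest to Arhgap24 in all 5 lists (r = 0.804 in TAC and 0.448 in SHAM). Its TAC means were −0.28 ± 0.17 at ZT03, −0.38 ± 0.07 at ZT07, −0.44 ± 0.09 at ZT11, 0.40 ± 0.42 at ZT15, 0.48 ± 0.27 at ZT19 and 0.50 ± 0.38 at ZT23, and its SHAM means ran between −0.23 ± 0.17 at ZT11 and 0.05 ± 0.04 at ZT07 (SD, n = 3 each). The Xirp1 amplitude was 0.56 ± 0.07 with a peak at ZT19.5 in TAC (adjusted p = 5.81e-06) and 0.07 ± 0.07 in SHAM (adjusted p = 0.780). It was the 1 gene of the 159 with a difference of rhythm called (limma, adjusted p = 0.0488), and this call was lost in 38 of 49 alternative settings, with adjusted p between 0.00392 and 0.695. Its TAC rhythm was called in all 51 alternative settings.

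Of the others called in TAC, Vcl, the adhesion protein vinculin, peaked near Arhgap24, with an amplitude of 0.14 ± 0.03 at ZT20.1 in TAC (adjusted p = 0.00957) and of 0.12 ± 0.03 at ZT18.1 in SHAM (adjusted p = 0.0318), and its r with Arhgap24 in TAC was 0.642. Its SHAM call was lost when any 1 of 6 SHAM arrays was left out, with adjusted p up to 0.125, and its TAC call in 4 of 51 alternative settings. Pdlim7, an actin-binding adaptor, had 0.18 ± 0.04 in TAC (adjusted p = 0.0344) and 0.13 ± 0.04 in SHAM (adjusted p = 0.161), and its TAC call was lost when any 1 of 7 TAC arrays was left out, with adjusted p up to 0.0973. Itga5, the fibronectin receptor subunit, had 0.19 ± 0.04 in TAC (adjusted p = 0.0122, and 0.0552 without TAC ZT23 replicate 3) and 0.08 ± 0.04 in SHAM (adjusted p = 0.447). Cald1, the actin binder caldesmon, and Junb, an immediate early transcription factor, peaked hours after Arhgap24 in TAC, Cald1 at ZT0.0609 and Junb at ZT1.24. The Cald1 amplitude was 0.27 ± 0.06 in TAC (adjusted p = 0.0144) and 0.13 ± 0.06 in SHAM (adjusted p = 0.360). The Junb amplitude was 0.23 ± 0.05 in TAC (adjusted p = 0.0167) and 0.11 ± 0.05 in SHAM (adjusted p = 0.365). The TAC call was lost in 6 of 51 alternative settings for Cald1 and in 4 of 51 for Junb.

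Srf, the transcription factor of the list, had an amplitude of 0.09 ± 0.02 in TAC (adjusted p = 0.0498) and of 0.16 ± 0.02 in SHAM (adjusted p = 0.000149), with peaks at ZT21.2 in TAC and ZT21.5 in SHAM. The TAC call of Srf was lost in 41 of 51 alternative settings, with adjusted p up to 0.537. Ankrd1, a stress-responsive protein of the cardiomyocyte nucleus and sarcomere, had 0.15 ± 0.08 in TAC (adjusted p = 0.497) and 0.49 ± 0.08 with a peak at ZT8.19 in SHAM (adjusted p = 0.000678), and its r with Arhgap24 was −0.340 in TAC and −0.555 in SHAM.

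**Figure D4:**
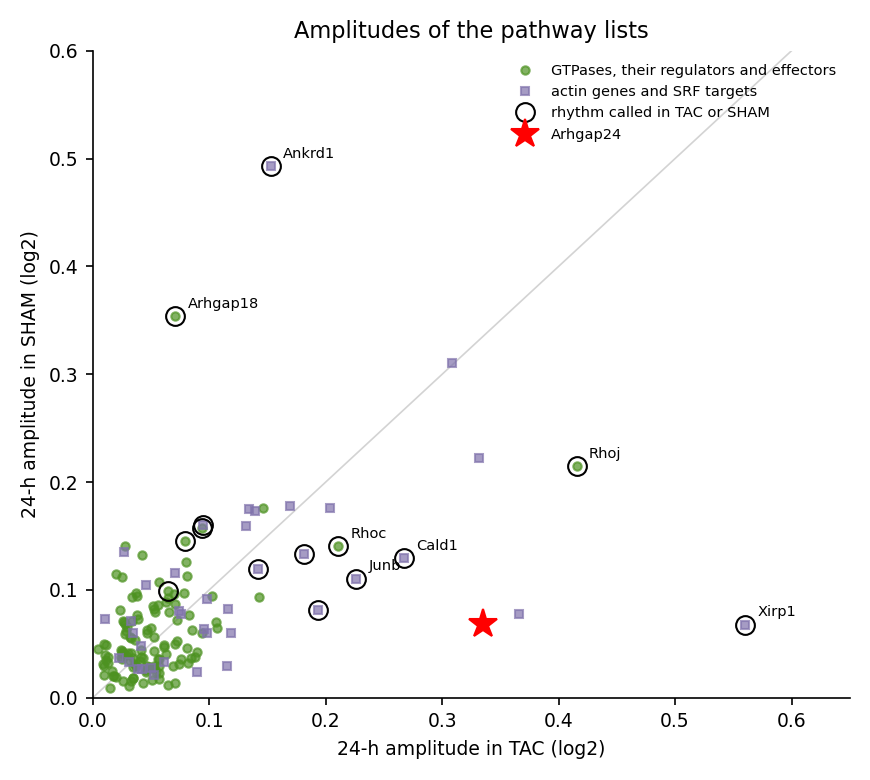
Amplitude of the fitted 24-h curve (log2, mean to peak) in TAC (horizontal) against SHAM (vertical) for the 159 measured genes of the pathway lists and Arhgap24 (star), with rings around genes whose rhythm was called in TAC or SHAM. Arhgap24 lies far right and low with Xirp1 and a gene of the actin list that was not called, Arhgap18 and Ankrd1 lie high and left, and most genes lie near 0.05 in both.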

How the data were processed

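Values came from the table of log2 values that the authors deposited for 36 Affymetrix arrays, read as log2 from their range; per the labels, 6 µg of RNA was used for each array. How they were summarised, normalized and centred, and the log base, no source used here gives. Depth has no meaning for arrays, and 3 arrays in each group limit the precision.

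Of 22690 probe sets, 20393 had 1 symbol in the platform annotation, 691 had several and 1606 were not listed, and 13 of the 20393 were controls. Through the Entrez IDs 20351 matched RefSeq (GRCm38.p6), with 0 symbols changed. Probe sets of 1 gene were averaged, giving 12393 genes, 4956 of them with several probe sets. No pair of arrays was identical, and array medians ran over −0.036 to 0.027.

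A mean, a 24-h cosine and a 24-h sine for each surgery were fitted to all 36 arrays with limma 3.58.1 (R 4.3.3), with 1 spread for each gene. F tests asked for a rhythm in TAC, in SHAM and for their difference, with Benjamini-Hochberg adjustment over 12393 genes and a threshold of 0.05. Standard errors came from the moderated variance. The procedure was tested on simulated data. Arhgap24 and its surroundings are described by the values, by Pearson's r and Spearman's rho over 18 arrays of a surgery, the 10 highest and 5 lowest genes being named. In the lists, called genes, those of set roles and those of extreme r were named. The gene and the lists were chosen with earlier results of these data known. The labels call the 3 arrays of a group biological replicates. Alternatives were another normalization, centring, probe set rule, filter, variance model, covariates, array weights and left-out arrays. The combined count of 1 group of genes is not reported here.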

Additional observations from a re-analysis of the deposited data

Results flagged for a closer look

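Xirp1, which binds actin filaments at the intercalated disc, was the 1 gene of the pathway lists whose daily rhythm differed between the surgeries by a test of the difference itself (limma, adjusted p = 0.0488). Its amplitude was 0.56 ± 0.07 in TAC and 0.07 ± 0.07 in SHAM (log2, SE), and the call held in 11 of 49 alternative settings.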

How the results depend on the processing

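Of 35 alternatives 29 changed the Arhgap24 amplitude in each surgery. In 28 of these the change stayed within the SD of the amplitudes of the 3 single replicate series, 0.044 in TAC and 0.031 in SHAM. Those series are themselves among the alternatives. Replicate number 3 by itself gave 0.39 in TAC, and replicate number 1 by itself gave 0.11 in SHAM and a TAC peak at 18.9 h. Leaving out arrays gave 0.31 to 0.36 in TAC, 0.05 to 0.08 in SHAM and a TAC peak between 19.1 and 19.6 h (hours on the ZT scale). Counts of genes moved more. In TAC 539 genes were rhythmic, 142 on the TAC arrays alone and 116 to 618 with arrays left out. In SHAM there were 692, with 1423 after quantile normalization, 1976 with array weights, 1166 on the SHAM arrays alone, 418 by a test for any shape and 119 to 777 with arrays left out. For the difference there were 6, with 11 after quantile normalization, 13 with array weights, 3 with an intensity trend, 2 with marker covariates, 3 with 24-h and 12-h curves together (chosen after seeing the data, like the single replicate series and the omission of ZT19) and 0 to 8 with arrays left out. Of 36 single arrays, 25 left 2 or 3, and without replicate 1, 2 or 3 there were 0, with 1266, 374 and 532 at an unadjusted p under 0.05 (limma). For the 159 pathway genes, 9 in TAC became 2 on the TAC arrays alone, 5 with marker covariates, 4 without the 4 arrays with other tissue and 1 to 10 with arrays left out. The 7 in SHAM became 16 after quantile normalization, 26 with array weights, 13 on the SHAM arrays alone, 3 by a test for any shape and 2 to 9 with arrays left out. Of the 10 genes most like Arhgap24 in TAC, 2 to 7 were rhythmic in SHAM with arrays left out. Their median r of 0.824 in TAC was 0.762 without the 2 farthest arrays, 0.275 on deviations from group means, 0.737 without ZT19 and 0.795 to 0.845 with arrays left out. In SHAM the median of 0.729 was 0.593 without the 2 farthest arrays and 0.652 to 0.783 with arrays left out. The cause of these shifts was not tested.

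The labels do not say that a replicate number pairs samples, and arrays of the same number and time had median correlations of their deviations of −0.118, −0.0107 and 0.0437 for numbers 1, 2 and 3, so the samples were not treated as paired. In the other direction, 23 of 36 arrays correlated best with their own number, a hint from the data and not from the design. With the number as a block, 565 genes were rhythmic in TAC and 726 in SHAM, the difference was called for 2, and 8 pathway genes in TAC and 7 in SHAM were called. In this balanced design the block cannot change the Arhgap24 amplitudes. Taking each probe set by itself gave no other value, since Arhgap24 has 1. Levels between the surgeries, other transcripts of the gene and the cell type behind the course could not be measured.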
